A study of Danio rerio with 6 samples.

Results

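The genes described here are the cathepsins, the subunits of the vacuolar H+-ATPase (V-ATPase) and the lysosome-associated membrane proteins of the zebrafish embryo. They were chosen by a rule on names that uses none of their values, although earlier results of these data were known. From the 32520 genes in the table, those whose symbol begins with cts and names a cathepsin, those whose symbol begins with *atp6v0* or *atp6v1*, and *lamp1b* and *lamp2* were taken, which gave 35 genes. Of these, 15 were cathepsins (13 cysteine proteases, the aspartic protease *ctsd* and the serine carboxypeptidase *ctsa*), 18 were V-ATPase subunits (8 of the membrane sector V0 and 10 of the cytosolic sector V1) and 2 were *lamp* genes. No gene carried the name *lamp1a*, so that name contributed no values, and 1 V1 subunit gene that the name rule would take was set aside. All 35 genes had enough reads to be tested, 34 had a mean of at least 1 TPM in wild type, where TPM is the transcript level scaled for transcript length and sequencing depth, and 0 were at 0 in every library.

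Embryonic zebrafish live on maternal yolk, which is taken apart and exported by the yolk syncytial layer (YSL), a multinucleated layer between the yolk mass and the embryo. Digestion of yolk protein needs an acidic compartment. The V-ATPase supplies the acid: its V1 sector hydrolyses ATP and turns a rotor that drives protons through the V0 sector in the membrane. Cathepsins are made as inactive precursors and mature in this acid, where cathepsin L, cathepsin B and cathepsin D are the classical enzymes of yolk protein breakdown in egg-laying animals, and the LAMP glycoproteins line the lysosomal membrane. V-ATPases and cathepsins are not restricted to yolk: neurons, ionocytes, macrophages and gut cells use them too.

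The libraries came from mid-sections of embryos at 3 days post fertilization (dpf), trimmed of heads and tails. In each of 3 clutches, numbered 2, 3 and 4, a pool of 6 opaque-yolk mutants homozygous for *dgat2* sa13945 and a pool of 6 wild-type siblings were taken, which gives 3 pools per genotype, and the genotypes share parents within a clutch. *dgat2* encodes an enzyme of triacylglycerol synthesis, and sa13945 is a nonsense allele from a chemical mutagenesis screen whose transcript persists, and by the study's account it may not be a null allele. With these libraries the study looked for a raised transcript of an enzyme that might account for the remaining triacylglycerol synthesis in these mutants. The mid-section holds the yolk sac with its YSL together with trunk tissue and is named in the labels as YSL and dorsal musculature. Markers of both named tissues were present: in the wild-type pools 17 muscle markers summed to between 146142 and 162750 TPM, and 17 YSL markers to between 10602 and 18131 TPM. The YSL list holds lipoprotein genes such as *mttp*. By the study's account liver and intestine make lipoproteins too, so the YSL sum is not specific to the YSL. Because each value is a mixture, fewer cells of a type and less RNA per cell cannot be told apart. Every mutant library was deeper than every wild-type library (52476194 to 59166585 against 45958694 to 49918655 counts). Across all genes the difference between genotypes was centred near 0 (median log2 fold change -0.01).

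In wild type the cathepsins were dominated by 1 gene. *ctsla* (ENSDARG00000007836), a cathepsin L, was at 606, 477 and 262 TPM in the pools of clutches 2, 3 and 4. It ranked 250 among all genes in the table and was higher than 98.9% of the genes tested. Its level in every wild-type pool lay above that of every other member in any wild-type pool, yet its own highest pool was 2.31 times its lowest. *ctsla* alone held 60.3%, 57.0% and 43.5% of the summed cathepsin TPM in the 3 pools. The pool of clutch 4, lowest in *ctsla*, also had the lowest sums of the YSL markers (10602 TPM) and of the hepatocyte markers (1758 TPM against 3047 and 3506 in the other wild-type pools). The part of tissue makeup in the *ctsla* values was not tested.

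Below *ctsla* came *ctsba* (ENSDARG00000055120), a cathepsin B, at 121 ± 7.71 TPM (mean and SD, n = 3 pools here and below). *ctsd* (ENSDARG00000057698), which encodes the aspartic protease cathepsin D, was at 91.0 ± 15.5 TPM. *ctsf* and *ctsz*, for cathepsins F and Z, were at 40.6 and 37.9 TPM. The serine carboxypeptidase gene *ctsa*, whose product also protects lysosomal glycosidases, was at 31.4 TPM. *ctsk*, known in mammals as the collagen-degrading protease of osteoclasts, was at 14.3 TPM. The aminopeptidase gene *ctsh* and the dipeptidyl peptidase gene *ctsc* were at 9.05 and 8.72 TPM. A group of 6 genes was scarce: *ctsl.1* at 4.63, *ctss2.2* at 2.81, *ctsbb* at 1.87, *ctsll* at 1.33, *ctss2.1* at 1.15 and *ctss1* at 0.319 TPM. The most abundant and the scarcest cathepsin thus belonged to the same cysteine protease family. Paralogs such as *ctss2.1* and *ctss2.2* can share reads, which the quantifier divides by estimation, so values within such pairs are less certain than their sums.

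The 5 members that varied most between wild-type pools, on the log2 TPM scale and among those with a mean of at least 1 TPM, were all cysteine cathepsins. They were *ctsbb*, *ctsl.1*, *ctsla*, *ctsll* and *ctss2.2*, with SDs of 1.09, 0.64, 0.62, 0.56 and 0.51. *ctsbb*, a cathepsin B paralog, rested on few reads, with 7 to 304 counts in its lowest and highest libraries. By contrast *atp6v1e1b* was the steadiest member, at 81.5, 80.5 and 83.7 TPM in the wild-type pools (SD 0.03).

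The V-ATPase genes lay within a narrower band of levels. The 2 genes for the proton-carrying c subunit, *atp6v0ca* and *atp6v0cb*, were at 150 ± 12.7 and 55.9 ± 13.3 TPM and together reached 206 ± 19.0 TPM. This was the highest sum of any subunit covered by the members, and the c subunit is also the one present in several copies per enzyme. Next came the V1 subunit genes *atp6v1g1*, for the G subunit of the peripheral stalk, at 141 ± 13.7 TPM, and the paired E subunit genes *atp6v1e1a* and *atp6v1e1b*, at 92.5 ± 1.79 TPM together. E and G form the stalks of the enzyme, of which each complex has several. The catalytic sector's B subunit, from *atp6v1ba* and *atp6v1b2*, summed to 60.0 ± 7.01 TPM, and *atp6v1f* was at 54.3 TPM. The genes for d, D and H, which are *atp6v0d1*, *atp6v1d* and *atp6v1h*, were at 44.6, 41.2 and 32.2 TPM, and the C subunit genes summed to 39.3 TPM. The membrane subunit genes *atp6v0b* and *atp6v0e1* were at 34.1 and 33.8 TPM. Among the subunits as covered by the members, the lowest sum was that of the 3 genes for subunit a, at 26.4 ± 2.98 TPM. Subunit a carries the proton half-channels and sets where in the cell the pump goes. The related genes *ATP6V0A2* and *tcirg1b*, at 2.04 and 6.46 TPM, are not members and were left out of this sum. Its place in the order therefore holds for the member genes only.

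Where a subunit had more than 1 member gene, the genes contributed unequal shares for E, c, C and B. Shares are of the summed TPM of the member genes. *atp6v1e1b* supplied 88.5 ± 0.221% of the E transcripts in wild type, *atp6v0ca* 73.0 ± 4.72% of the c transcripts, *atp6v1c1a* 63.2 ± 2.97% of the C transcripts and *atp6v1ba* 62.9 ± 3.18% of the B transcripts. Among the 3 member genes for subunit a none had a majority on average, with *atp6v0a1a* at 43.9 ± 4.87%, *atp6v0a1b* at 40.8 ± 6.45% and *atp6v0a2b* at 15.2 ± 1.62%. *atp6v0a1b* held the largest share in the wild-type pool of clutch 4, at 48.2%, and *atp6v0a1a* in those of clutches 2 and 3. The *lamp* genes followed at 34.7 TPM for *lamp2*, whose product serves in autophagy, and 15.5 TPM for *lamp1b*.

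When the 35 genes were put in order of their wild-type means, 27 of the 34 neighbouring pairs had overlapping ranges over the 3 pools. Only 7 steps were free of overlap, those from *ctsla* to *atp6v0ca*, *ctsba* to *ctsd*, *atp6v1e1b* to *atp6v0cb*, *atp6v1f* to *atp6v0d1*, *ctsa* to *atp6v1c1a*, *atp6v1b2* to *lamp1b* and *ctss2.1* to *ctss1*. Neighbours inside the broad middle, from *atp6v0d1* to *ctsa*, therefore overlapped in their ranges. Compared within each pool, *atp6v0d1* was above *atp6v1d*, and *ctsf* above *ctsz*, in all 3 pools. The other neighbours in that stretch changed order between pools. The ends of that stretch were apart, with *atp6v0d1* at 42.0 to 47.6 TPM and *ctsa* at 29.1 to 33.3 TPM.

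**Figure D1:**
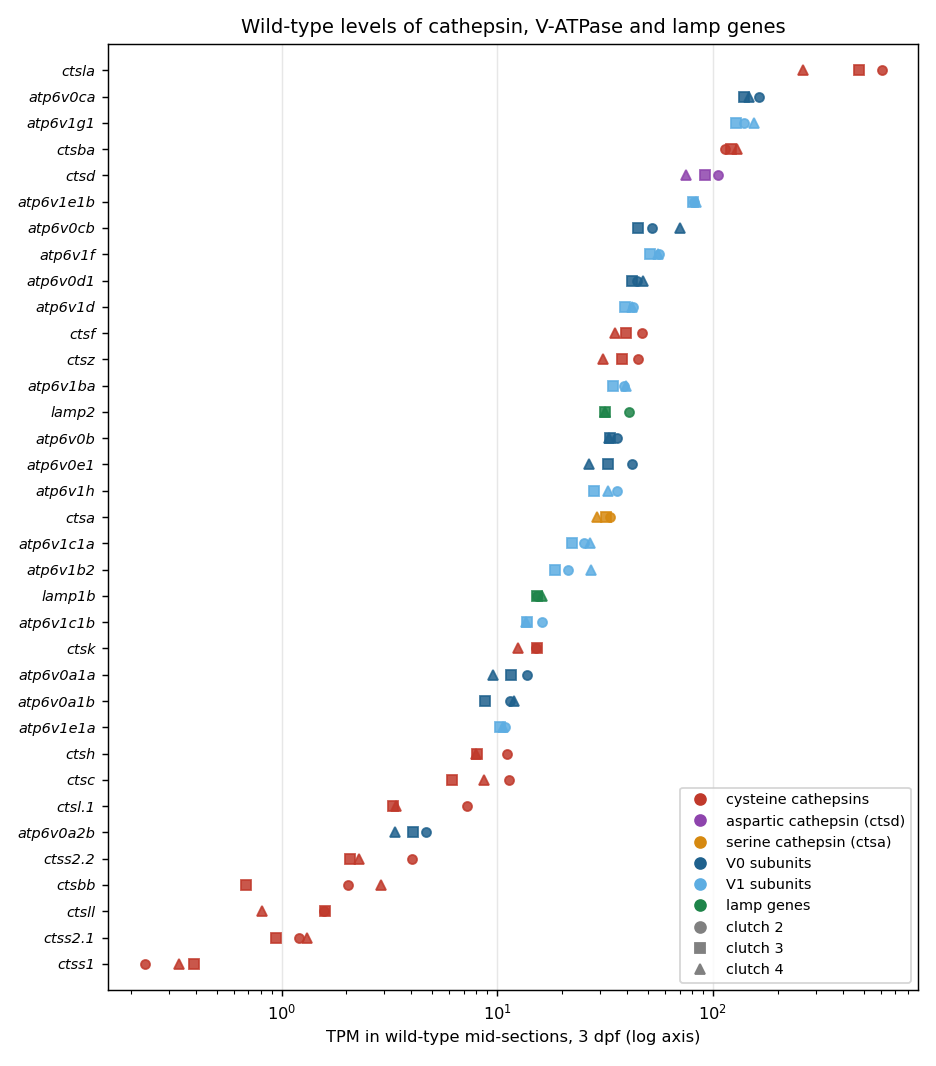
TPM of each of the 35 genes in the 3 wild-type pools, on a log axis, ordered by mean; colour gives the role and the symbol gives the clutch. *ctsla* stands apart at 262 to 606 TPM, the V-ATPase genes lie between *atp6v0a2b* (mean 4.03 TPM) and *atp6v0ca* (mean 150 TPM), and the cysteine cathepsins span the whole range down to *ctss1* (mean 0.319 TPM).

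As whole groups, the classes had summed transcript amounts that overlapped between genotypes. Cathepsins summed to 908, 776 and 892 TPM in the mutant pools of clutches 2, 3 and 4. Their wild-type siblings had 1005, 838 and 601 TPM. The groups thus overlapped, with mutants lower in clutches 2 and 3 and higher in clutch 4. Without *ctsla* the other 14 summed to 439.6, 423 and 406 TPM in mutants and 399, 361 and 339.6 TPM in wild type, and every mutant pool was then above every wild-type pool. This subset was formed after the values were seen and is given as a description. V-ATPase genes summed to 796, 747 and 849.7 TPM in mutants and 835, 743 and 838 TPM in wild type, again overlapping.

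For the difference between genotypes, counts were scaled for library size with TMM factors (normalized counts, CPM). edgeR tested them by quasi-likelihood in a fit that held genotype alone. With Benjamini-Hochberg adjustment over the 22762 genes tested, 0 of the 35 members passed an adjusted p of 0.05, as 3 genes or 0.0132% of all genes did. At an unadjusted p under 0.05, 4 members were higher in mutants and 0 lower, where 3.21% of all tested genes were higher and 1.99% lower. Without the mutant pool of clutch 3 the number was 2. With the clutch as a block, 7 members were higher and 0 lower at that level (background 5.14% higher and 3.05% lower). The 3 members gained were *ctsc*, *atp6v0e1* and *ctss2.2*, with adjusted p-values of 0.427, 0.539 and 0.562 in that edgeR fit. The same fit called 1 member, *ctsl.1*, after adjustment (background 77 genes, 0.338%). DESeq2 also called *ctsl.1* alone (background 0.67%), with 4 members at an unadjusted p under 0.05 (background 4.54%). With transcript length offsets it called 0 members (background 0.684%), and 4 again had an unadjusted p under 0.05 (background 5.04%).

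*ctsl.1* (ENSDARG00000003902; GRCz11 chromosome 17, 27456804 to 27461321, plus strand) encodes a second cathepsin L-type protease. It was at 19.8, 13.0 and 9.12 CPM in the mutants of clutches 2, 3 and 4 and at 9.16, 4.67 and 5.03 CPM in their wild-type siblings. Both genotypes were highest in clutch 2, and the groups overlapped slightly, since the wild-type pool of clutch 2 was just above the mutant pool of clutch 4. The log2 fold change was 1.15 (standard error 0.34, 95% interval 0.38 to 1.92), or 2.22-fold, and edgeR's adjusted p was 0.688. Every mutant pool exceeded its own siblings, by 1.11, 1.47 and 0.85 on the log2 scale. The edgeR fit with the clutch as a block, which removes the level shared by siblings, gave an adjusted p of 0.0379. That call was lost without clutch 2 (log2 fold change 1.17, adjusted p = 0.108) and without clutch 3 (0.99, adjusted p = 0.0844) and held without clutch 4 (1.29, adjusted p = 0.0145). The adjusted p was 0.0392 by DESeq2, 0.0522 with length offsets and 1.1e-05 with offsets and the block, a fit that called 1.61% of all genes. In TPM *ctsl.1* remained a small part of the cathepsin pool, at 1.14 ± 0.359% in mutants and 0.557 ± 0.163% in wild type.

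*ctsh* (ENSDARG00000041108; GRCz11 chromosome 18, 26422124 to 26428525, plus strand), for the aminopeptidase cathepsin H, was at 21.6, 15.0 and 15.0 CPM in mutants and 13.0, 10.8 and 11.3 CPM in wild type. All mutant pools lay above all wild-type pools. The log2 fold change was 0.56 (standard error 0.17, 95% interval 0.17 to 0.94), and the adjusted p was 0.761 by edgeR and 0.168 with the block. The clutch differences were 0.73, 0.47 and 0.40 on the log2 scale. Its unadjusted p stayed under 0.05 in all 22 alternative fits (highest 0.0449), and its lowest adjusted p among them was 0.0603.

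The cathepsin S gene *ctss2.1* (ENSDARG00000074656; GRCz11 chromosome 16, 29509133 to 29513434, plus strand) belongs to a family known in mammals for antigen processing. It had 1.91, 5.34 and 1.89 CPM in mutants and 1.27, 1.1 and 1.62 CPM in wild type. Its estimate of 1.2 on the log2 scale (standard error 0.43; edgeR's adjusted p = 0.874) rested on the mutant pool of clutch 3, without which it was 0.52 (adjusted p = 0.902). Its neighbour in name, *ctss2.2*, gave 0.41 (standard error 0.25), with clutch differences of 0.26, 0.56 and 0.48. *ctss1*, the other cathepsin S gene, gave -0.15 (standard error 0.43) from only 17 to 35 counts per library.

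Apart from *ctsbb*, the other cathepsins had smaller estimates than *ctsl.1*, *ctsh* and *ctss2.1*. *ctsla* gave a log2 fold change of 0.00 (standard error 0.23, 95% interval -0.52 to 0.53), with clutch differences of -0.20, -0.35 and 0.71, so it was lower in the mutants of 2 clutches and higher in those of clutch 4. Without the wild-type pool of clutch 4 its log2 fold change was -0.24. *ctsba*, *ctsz*, *ctsd* and *ctsf* gave 0.18, 0.21, 0.19 and 0.14, with intervals that all included 0 and upper bounds of 0.35 to 0.47. Of these *ctsf* was the only gene without overlap between genotypes, at 144, 134 and 132 CPM in mutants and 131, 125 and 117 CPM in wild type. *ctsc*, whose product activates granule proteases of leukocytes in mammals, gave 0.34 (standard error 0.23) with differences of 0.48, 0.43 and 0.09. *ctsbb* had the largest estimate and the widest interval, 1.43 (95% interval -1.14 to 4.01). It was at 5.74, 0.133 and 0.923 CPM in mutants and 0.682, 0.180 and 1.65 CPM in wild type, and without the mutant pool of clutch 2 its log2 fold change was -0.64. *ctsll*, *ctsk* and *ctsa* gave 0.08, 0.05 and 0.11.

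In all, 14 of the 15 cathepsins had a log2 fold change above 0, with a median of 0.19, whereas 48.2% of all genes tested were above 0. Of these *ctsla*, *ctsbb*, *ctsk*, *ctsll* and *ctsa* fell below 0 in at least 1 alternative fit. *ctss1*, the cathepsin below 0, rose above 0 in at least 1. Within clutches the cathepsin median in log2 CPM was 0.24, 0.19 and 0.22, and 12, 11 and 11 of the 15 were higher in mutants. In every clutch alike, 8 cathepsins were higher in mutants in CPM (*ctsl.1*, *ctsh*, *ctss2.1*, *ctss2.2*, *ctsc*, *ctsz*, *ctsd* and *ctsf*) and 0 were lower. In TPM *ctsd* (102 against 106) and *ctsf* (45.3 against 47.0) were lower in the mutants of clutch 2. Among all 35 members, 12 were higher in CPM in every clutch (background 14.6%) and 1, *atp6v0b*, was lower in every clutch (background 14.3%). In TPM *atp6v0b* was higher in the mutants of clutch 4 (35.7 against 32.9).

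**Figure D2:**
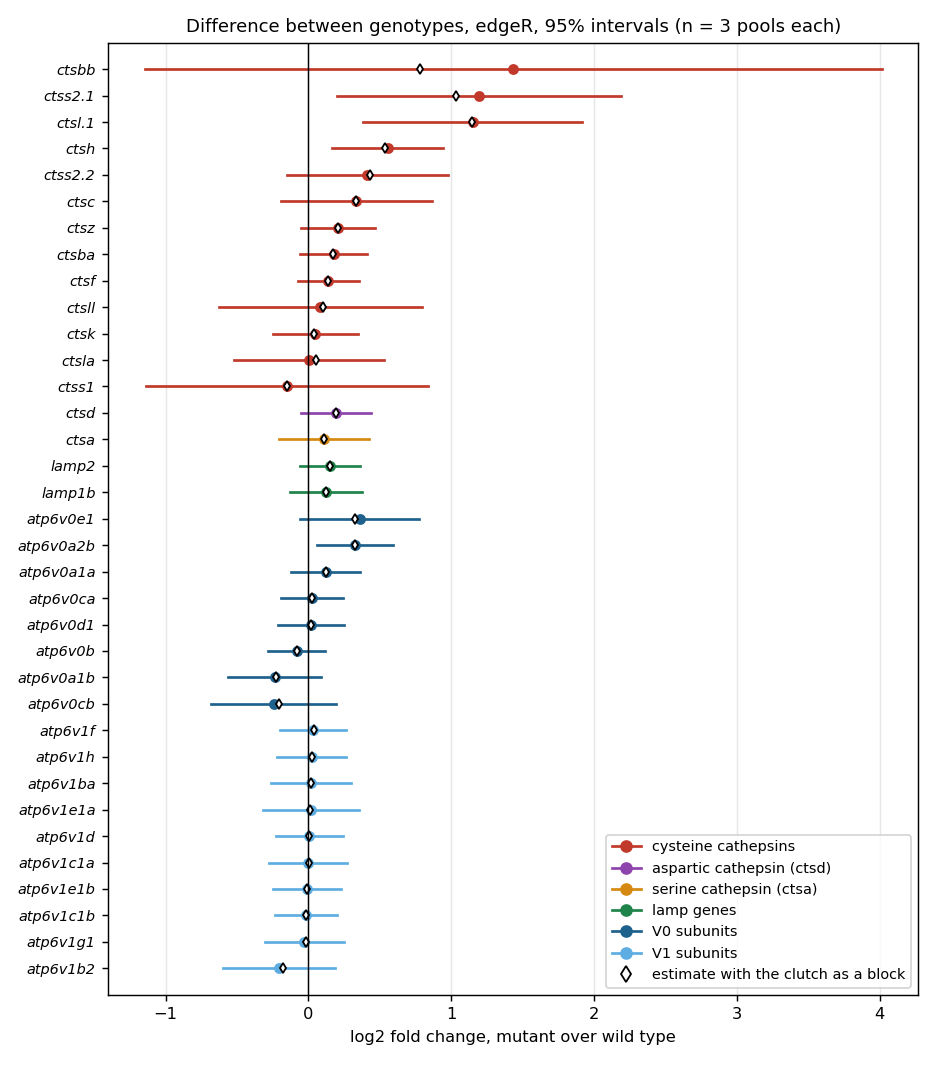
Log2 fold change, mutant over wild type, of each of the 35 genes by edgeR, with 95% intervals from 3 pools per genotype; open diamonds give the estimate with the clutch as a block. The intervals of *ctsl.1*, *ctsh*, *ctss2.1* and *atp6v0a2b* lie above 0, the wide interval of *ctsbb* runs from -1.14 to 4.01, and the V1 subunit estimates lie between -0.20 and 0.03.

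The V-ATPase subunit genes were centred on no difference. Their median log2 fold change was 0.01, 10 of 18 were above 0, and for 13 of 18 the whole 95% interval lay within 0.5 of 0 on the log2 scale. For the V1 sector the median was 0.00 and 9 of 10 intervals lay within that range. The exception was *atp6v1b2*, for a B subunit of the ATP-hydrolysing ring, at -0.20 (95% interval -0.59 to 0.19), and at 0.03 without the wild-type pool of clutch 4. It is also the only member placed on chromosome 10, the chromosome of *dgat2*, by name in the gene table of assembly GRCz12tu, and the part of that linkage in its value was not tested.

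Among V0 genes, *atp6v0a2b* (ENSDARG00000035565; GRCz11 chromosome 5, 24543862 to 24567869, plus strand) had the only unadjusted p under 0.05 in the fit without the clutch. Its product belongs to the a2 isoforms, which in mammals act in the Golgi and early endosomes. It was at 22.9, 23.5 and 20.0 CPM in mutants and 18.4, 18.6 and 16.1 CPM in wild type, with no overlap. The log2 fold change was 0.32 (standard error 0.12, 95% interval 0.06 to 0.59, adjusted p = 0.874 by edgeR), and the clutch differences of 0.32, 0.34 and 0.32 were nearly equal. Its share of the summed TPM of the 3 member genes for subunit a was 19.4%, 19.3% and 17.5% in mutants. In wild type that share was 15.6%, 16.7% and 13.5%. *ATP6V0A2*, a related gene listed in capitals and not a member, went the other way. Its log2 fold change was -0.39 (standard error 0.23), with clutch differences of -0.36, -0.05 and -0.68. *atp6v0a1a* gave 0.12 (standard error 0.11), with clutch differences of 0.05, 0.13 and 0.20, and *atp6v0a1b* gave -0.24 (standard error 0.14), with differences of -0.29, 0.03 and -0.41. Neither passed the test, and without the wild-type pool of clutch 4 they gave 0.04 and -0.09. In mammals the a1 isoform is most abundant in the nervous system.

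*atp6v0e1*, for the small subunit e, was at 51.1, 39.9 and 29.7 CPM in mutants and 32.8, 32.4 and 28.9 CPM in wild type, overlapping. Its log2 fold change of 0.36 (standard error 0.18) came with clutch differences of 0.64, 0.30 and 0.04, and the block fit gave 0.33 (standard error 0.13). *atp6v0cb* ran the other way, at 78.0, 82.5 and 92.2 CPM against 83.8, 81.0 and 134 CPM. Its log2 fold change of -0.24 (standard error 0.19) rested on the high wild-type pool of clutch 4, without which it was 0.03. *atp6v0ca*, *atp6v0d1* and *atp6v0b* gave 0.03, 0.02 and -0.08, with standard errors of 0.09 to 0.10.

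Both *lamp* genes had estimates above 0 without passing the test. *lamp2* was at 72.2, 65.4 and 66.2 CPM in mutants and 63.5, 62.1 and 57.9 CPM in wild type, free of overlap, with a log2 fold change of 0.15 (95% interval -0.06 to 0.36). *lamp1b* gave 0.12, with clutch differences of 0.37, 0.06 and -0.04.

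On the CPM scale 5 members had every mutant pool above every wild-type pool, namely *ctsh*, *ctss2.1*, *ctsf*, *atp6v0a2b* and *lamp2*, and 0 had every mutant pool below (background 5.14% and 4.63%). In a 2-sided exact permutation test each of the 5 had p = 0.1, the smallest that 3 pools against 3 can give. Pools free of overlap always give that p, so it adds nothing to the lack of overlap. On the deposited TPM scale only *ctss2.1* and *atp6v0a2b* were free of overlap, both higher in mutants (background 2.89% higher and 4.67% lower).

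**Figure D3:**
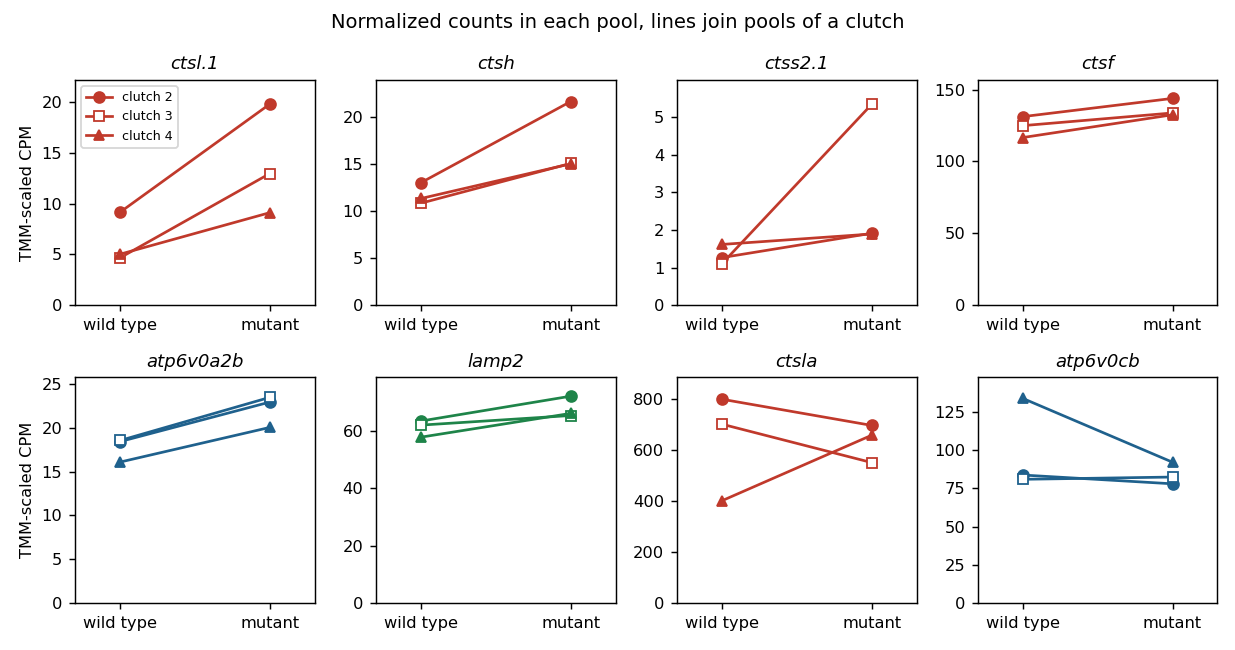
TMM-scaled CPM of 8 genes in each pool, on axes that start at 0; each line joins the wild-type and mutant pools of 1 clutch. *ctsl.1*, *ctsh* and *atp6v0a2b* are higher in the mutant pool on all 3 lines, *ctss2.1* is carried by clutch 3 (1.1 to 5.34 CPM), *ctsla* crosses, and *atp6v0cb* differs mainly in clutch 4 (134 CPM in wild type).

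Within clutches the V1 genes were mixed in CPM in clutch 2. All were higher in CPM in the mutants of clutch 3 and all lower in those of clutch 4. In mutants 6, 10 and 0 of the 10 V1 genes were higher than in the siblings of clutches 2, 3 and 4, with all 10 lower in clutch 4 (background 50.9% lower). In TPM this pattern was not kept. In clutch 4 *atp6v1f* (58.4 against 55.7 TPM) and *atp6v1d* (45.0 against 42.1 TPM) were higher in mutants. *atp6v1g1* (147 against 155 TPM) and *atp6v1b2* (22.6 against 27.3 TPM) were lower there. In clutch 3 *atp6v1e1b* was lower in mutants (78.6 against 80.5 TPM). For all 18 V-ATPase genes the numbers higher in CPM were 11, 17 and 3, with medians of 0.07, 0.12 and -0.15. Of all genes, 50.3%, 49.6% and 49.1% were higher in those clutches. The summed V-ATPase CPM was 1271, 1273 and 1235 in mutants and 1198, 1188 and 1422 in wild type. The wild-type pool of clutch 4 thus stood highest in CPM. In summed TPM it did not, at 838 TPM against 849.7 TPM in the mutant pool of clutch 4. The neuron markers, summed in TPM, were highest in the wild-type pool of clutch 4, at 955 TPM against 616 to 749 TPM in the other libraries. The 14 neuron markers had median clutch differences of -0.07, 0.10 and -0.55, and 1 of 14 had a log2 fold change above 0. The neuron list was chosen after the V-ATPase values were seen. The 13 ionocyte markers, on a list made earlier, had their lowest sum in the wild-type pool of clutch 4. It was 119 TPM there against 129 to 200 TPM in the other libraries. Their median clutch differences were -0.21, -0.04 and -0.05, and 3 of 13 had a log2 fold change above 0. The part of neurons and of ionocytes in the V1 pattern was not tested.

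**Figure D4:**
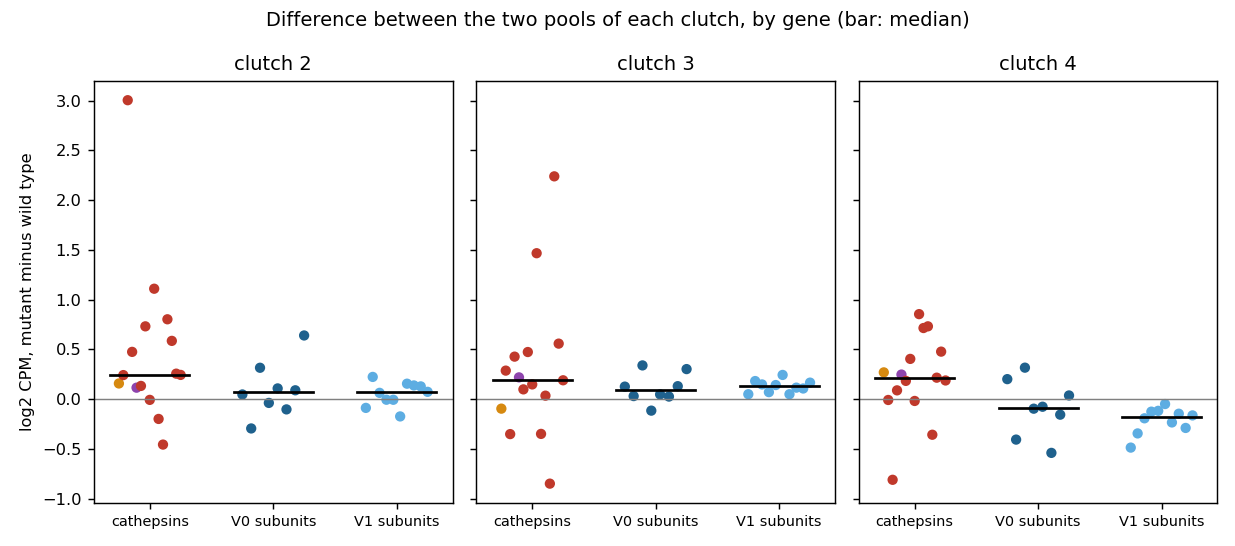
Log2 CPM difference, mutant minus wild type, of each cathepsin, V0 and V1 gene within each clutch; points are genes, colours give the roles, and black bars are medians. In CPM the V1 genes lie above 0 in clutch 3 (10 of 10) and below 0 in clutch 4 (10 of 10), whereas the cathepsin medians stay at 0.24, 0.19 and 0.22. In TPM, not drawn here, the V1 genes do not all share a direction in clutch 3 or in clutch 4.

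Markers of other cathepsin-rich cells were measured in the same libraries. Of 11 lysosome-rich enterocyte markers, genes of gut cells that take up and digest protein, 8 were found, and the receptor genes *cubn*, *amn* and *lrp2b* were not among them. For 7 of these 8 the log2 fold change was above 0 (48.2% of all genes tested). The exception, the receptor gene *lrp2a*, was lower at an unadjusted p under 0.05, where 2 of the 8 were higher (background 1.99% lower and 3.21% higher). The 8 genes summed to 163 to 378 TPM in mutants and 120 to 206 TPM in wild type. The sum was higher in mutants in each clutch. So were the sums of the hatching gland markers (286 to 300 TPM in mutants, 261 to 275 TPM in wild type) and of the pancreatic acinar markers (269 to 1898 and 245 to 1426 TPM). The hatching gland sum was carried by *cd63*, which is also a lysosomal membrane gene. In clutches 2, 3 and 4 *cd63* was at 148, 139 and 134 TPM in mutants and 119, 105 and 96.0 TPM in wild type. The enterocyte sum was carried by *fabp6*, for a bile acid-binding protein, at 186, 60.9 and 152 TPM in mutants and 49.9, 21.0 and 50.2 TPM in wild type (log2 fold change 1.72, adjusted p = 0.484 by edgeR and 0.0086 with the block). For 14 of 15 macrophage markers the log2 fold change was above 0, with a median of 0.23. At an unadjusted p under 0.05 by edgeR, 2 of the 15 were higher and 0 lower (background 3.21% higher and 1.99% lower). Their sums overlapped, at 94.5 to 102 TPM in mutants and 94.2 to 108 TPM in wild type. In the YSL list 11 of 16 tested markers were above 0, a median of 0.25 on the log2 scale, and overlapping sums of 13384 to 18079 TPM in mutants and 10602 to 18131 TPM in wild type. At an unadjusted p under 0.05, 4 of the 16 were higher (*mttp*, *apoa4b.2*, *apoa4b.3* and *fabp1b.1*, all of lipid transport) and 0 lower. The background was 3.21% higher and 1.99% lower. With the clutch as a block *apoa4b.2* and *apoa4b.3* passed the adjusted test by edgeR, at 0.0039 and 0.0045. None of the found markers of these lists was at 0 in every library. The part of these cell types in the cathepsin differences was not tested.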

How the data were processed

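Poly(A) RNA was sequenced in 6 libraries, 3 per genotype. Adapters were trimmed and ribosomal reads removed by the authors, who aligned to GRCz11 with STAR 2.7.9a and quantified genes with Salmon 1.10.1 in the nf-core/rnaseq pipeline, per the methods and the submitters' processing notes. They deposited estimated counts, not scaled for depth, and the matching deposited TPM, scaled for length as well as depth. Levels between genes were compared in TPM only. The libraries were made with a kit that does not mark strand.

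The estimates were rounded and tested with edgeR 4.0.16 in R 4.3.3 (TMM, filterByExpr, quasi-likelihood test, Benjamini-Hochberg adjustment over 22762 genes). Standard errors were derived from each log2 fold change and its F statistic, and the intervals cover 95%. Genotype was the only term, since the study's methods name no covariate. Alternatives were DESeq2 1.42.0 with and without length offsets, the clutch as a block, other scaling factors and filters, robust dispersion, limma 3.58.1 on log2 TPM with a pseudocount of 1 or 0.1, and leaving out each library. Clutch numbers in the labels pair the pools: libraries of 1 clutch deviated together (correlations across genes of 0.351, 0.309 and 0.185, against -0.299 to 0.0311 between clutches). Depth was 45958694 to 59166585 counts, so counting error was small except for the scarcest genes. Exact permutation tests used scipy 1.17.1.

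Members and lists were chosen with earlier results of these data known, and the neuron list and block fits without a clutch were added after values were seen. Members were named for high wild-type TPM (the first 12 and the first of each role), an unadjusted p under 0.05 or a call in the edgeR, block or DESeq2 fits, no overlap between genotypes, large wild-type spread, isoforms of a subunit, and the *lamp* genes; others are named to complete their role. GRCz11 positions came from the study's annotation. *ctslb*, sequences and promoter motifs were not analysed here.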

Additional observations from a re-analysis of the deposited data

How the results depend on the processing

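No member that was called in any fit changed direction. Of the 35 members, 16 kept 1 sign under all 22 alternatives and 19 changed sign under at least 1, all 19 being uncalled. With the clutch as a replicate block (pairing by clutch), 1 member passed an adjusted p of 0.05 rather than 0, 7 rather than 4 had an unadjusted p under 0.05, and 77 rather than 3 of all genes were called. The block changed no other member's call. DESeq2 called 1 member and 160 genes, DESeq2 with length offsets 0 and 167, and with offsets and the block 1 and 359. All genes called were 9 without a filter on low counts, 7 with robust dispersion, and 6 by limma on log2(TPM + 1) and also on log2(TPM + 0.1). The limma fit without a filter left 2 members with an unadjusted p under 0.05. Leaving out each library in turn gave 0 to 4 called genes, 2 to 6 members with an unadjusted p under 0.05 (the 2 without the mutant pool of clutch 3), and a cathepsin median log2 fold change of 0.14 to 0.26. In block fits without clutch 2, 3 or 4, added after the data were seen, 46, 94 and 123 genes were called. Without clutch 4, 1 member was called and 9 had an unadjusted p under 0.05, and without clutch 3 the cathepsin median was 0.23. The lowest counts were those of *ctsbb* and *ctss1*, and with 3 pools per genotype the spread between pools limits the estimates.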

Other observations

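The wider lysosomal pathway was read in the same fit, from lists fixed by symbol. Of 46 tested lysosomal hydrolase genes, 36 had a log2 fold change above 0 (median 0.11), beside 48.2% of all genes tested. The 46 genes summed to 652, 582 and 629 TPM in the mutants of clutches 2, 3 and 4. Their wild-type siblings had 730, 590 and 447 TPM, so the sum was lower in mutants in clutches 2 and 3 and higher in clutch 4. At an unadjusted p under 0.05, 6 were higher and 0 lower, beside 3.21% and 1.99% of all genes. The 6 were *galns*, *naga*, *psap*, *manba*, *hexb* and *ppt1*. The largest estimate was that of *galns*, a sulfatase of keratan sulfate breakdown, at 4.13, 4.49 and 4.14 TPM in mutants and 3.1, 3.32 and 2.38 TPM in wild type (log2 fold change 0.56, adjusted p = 0.671 by edgeR). *psap*, which encodes the saposin precursor needed for sphingolipid breakdown, was at 102, 99.0 and 83.5 TPM against 87.6, 79.6 and 64.7 TPM. Of 22 lysosomal membrane genes, *cd63* was higher (0.42, adjusted p = 0.515) and the sorting receptor gene *scarb2a* lower (-0.40, adjusted p = 0.57) at an unadjusted p under 0.05. Of 8 cystatin and serpin inhibitor genes, *serpinb1* was higher (0.47, adjusted p = 0.632), and of 19 genes of late endosome fusion, *rab7b* was higher (0.48, adjusted p = 0.832).

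Among 13 V-ATPase accessory and assembly genes and 23 genes of mannose 6-phosphate sorting and lysosome regulation, 0 reached an unadjusted p under 0.05. Of 12 tested yolk endocytosis genes, the receptor genes *lrp2a* (-0.40, adjusted p = 0.851) and *vldlr* (-0.26, adjusted p = 0.951) were lower at that level. The yolk protein genes themselves were scarce, with 7 vitellogenin genes summing to at most 1.62 TPM in any library; of the 3 tested, *vtg7* was lower (-1.72, adjusted p = 0.851). In these 8 lists 0 genes passed an adjusted p of 0.05 by edgeR with or without the clutch as a block. DESeq2 with length offsets and the block called *cd63* (adjusted p = 0.0315) and *serpinb1* (adjusted p = 0.0077), which had 0.0767 and 0.122 by DESeq2 without either. Related genes listed under capital symbols were not taken as members: *CTSO* gave 0.06, *LAMP1* 0.08 and *ATP6V0A2* -0.39, and *ATP6V1C2* had too few reads to be tested.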
